A study of Homo sapiens with 23 samples.

Results

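Immediate early genes are switched on within minutes of a stimulus, without new protein synthesis. Neurotrophins such as brain-derived neurotrophic factor (BDNF) reach them through the MAP kinase pathway and through calcium, which act on serum response factor with its ELK partners and on CREB. The 8 genes described here encode the AP-1 subunits FOS, FOSB, JUN and JUNB, the zinc finger transcription factor EGR1, the nuclear receptor NR4A1, the activity-dependent transcription factor NPAS4 and the synaptic protein ARC. LSD1 (KDM1A) removes methyl groups from histone tails, and LSD1+8a is its splice form in neurons.

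The peaks described are those of 5 ChIP-seq peak lists that overlapped, by at least 1 bp, a window drawn around each gene in the hg19 build. The windows were 75.7 to 75.8 Mb of chromosome 14 for FOS, 45.92 to 46.03 Mb of chromosome 19 for FOSB, 59.19 to 59.3 Mb of chromosome 1 for JUN and 12.85 to 12.96 Mb of chromosome 19 for JUNB. They were 137.75 to 137.86 Mb of chromosome 5 for EGR1, 52.36 to 52.51 Mb of chromosome 12 for NR4A1, 143.64 to 143.75 Mb of chromosome 8 for ARC and 66.13 to 66.25 Mb of chromosome 11 for NPAS4. Together they span 0.92 Mb and held 91 of the 52708 peaks of all lists. The windows are fixed stretches around the genes, and no peak value enters the rule.

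The study used SH-SY5Y, a human neuroblastoma line. The protocol text, which is the same for every sample, describes 4 days in 10 µM retinoic acid followed by serum-free medium with BDNF at 50 ng/mL over 3 days. Day 0 and day 3 are time points of the maturation induced by BDNF, and how cells of day 0 were handled is not described further. The lists are LSD1 in cells with a control shRNA at day 0 and at day 3, LSD1 in cells with an shRNA against LSD1+8a at day 0, and LSD1+8a and supervillin (SVIL, which the series names as a cofactor of LSD1+8a) in control shRNA cells at day 3. All of these cells carried an shRNA and came from the same line. Each group is 1 library out of 23 samples in the series, so no test between conditions was possible and no difference below has a replicate check. Read totals of the libraries are unknown here. The lists held 16882 peaks (LSD1, control, day 0), 10248 (LSD1, knockdown, day 0), 20748 (LSD1, control, day 3), 3378 (LSD1+8a) and 1452 (SVIL). Depth and the number of bound places cannot be told apart in the length of a list. Neither the extent of the knockdown nor the specificity of the antibodies was checked here.

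Gene annotation of hg19 was not used here, so whether a peak lay at a promoter, in an exon or in an intron was not determined. The windows are wide, and which other genes they reach was not determined. Protein-coding genes of the RefSeq gene table were put in order of their starts, and distances were not computed. The entries just before and after were TMED10 and JDP2 for FOS, ERCC1 and RTN2 for FOSB, and MYSM1 and FGGY for JUN. For JUNB they were HOOK2 and PRDX2, for EGR1 REEP2 and ETF1, and for NR4A1 TAMALIN and ATG101. For ARC they were ADGRB1 and JRK, and for NPAS4 SLC29A2 and MRPL11. A peak in a window is a peak near the gene and need not belong to it.

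The 250 bases before the annotated start are printed for 4 members around which the results turn: EGR1, whose window held the best ranked LSD1 peaks, FOSB and JUNB, whose windows held the best ranked LSD1+8a peaks, and NPAS4, whose window had 8 LSD1 peaks at day 0 and 1 at day 3. They come from RefSeq in the GRCh38.p14 build, whose positions cannot be set against the hg19 peak positions. Capitals mark the CArG box, which serum response factor binds, and TGACG, the core of the CREB element, which reads CGTCA where it lies on the other strand. For NPAS4 the more upstream of 2 annotated starts is shown.
EGR1 (chr5:138465229-138465478, plus strand): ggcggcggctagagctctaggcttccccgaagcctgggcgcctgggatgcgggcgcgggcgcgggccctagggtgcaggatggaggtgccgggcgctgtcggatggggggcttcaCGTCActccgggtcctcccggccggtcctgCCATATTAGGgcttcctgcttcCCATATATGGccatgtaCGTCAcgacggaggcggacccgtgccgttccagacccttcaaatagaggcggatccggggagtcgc
FOSB (chr19:45467746-45467995, plus strand): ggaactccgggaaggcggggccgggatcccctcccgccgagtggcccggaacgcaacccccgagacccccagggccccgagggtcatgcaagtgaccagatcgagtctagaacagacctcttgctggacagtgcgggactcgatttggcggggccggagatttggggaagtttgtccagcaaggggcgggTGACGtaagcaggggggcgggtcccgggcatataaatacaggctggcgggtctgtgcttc
JUNB (chr19:12791236-12791485, plus strand): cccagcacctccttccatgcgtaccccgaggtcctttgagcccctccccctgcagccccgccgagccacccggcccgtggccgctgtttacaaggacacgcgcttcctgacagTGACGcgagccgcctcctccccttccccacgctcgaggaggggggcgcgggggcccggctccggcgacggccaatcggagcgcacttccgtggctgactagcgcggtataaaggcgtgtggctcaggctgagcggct
NPAS4 (chr11:66420754-66421003, plus strand): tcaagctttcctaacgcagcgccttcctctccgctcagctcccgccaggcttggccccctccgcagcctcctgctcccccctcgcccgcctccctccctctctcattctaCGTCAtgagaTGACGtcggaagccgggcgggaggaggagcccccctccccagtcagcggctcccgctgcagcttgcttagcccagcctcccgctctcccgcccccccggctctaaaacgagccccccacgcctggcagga

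EGR1 held 2 CArG boxes, CCATATTAGG and CCATATATGG, and 2 copies of the TGACG core. The RefSeq promoter table matched 7 of the 8 genes with 9 starts, all genes but ARC. On either strand, EGR1 was the only member of 7 with a CArG box, which 1.16% of the 35116 promoters of the table held in the same 250 bases. Sequence further upstream was not searched, so a member without a match here may hold the element elsewhere. The TGACG core was found in 6 of 7 members, all but NR4A1, and in 7 of their 9 starts, against 21.2% of all promoters. A member was counted if any of its starts held the motif, while the background shares are of single promoters. For NR4A1 only the starts matched in the promoter table were scanned, and any others were not examined. The full element TGACGTCA, which contains that core, was found in 0 of 7 (1.65% of all promoters), and so was the AP-1 element TGANTCA (6.57%). Only this spelling of the AP-1 element was searched, and longer variants were not. The EGR element GCGNGGGCG was found in EGR1 alone (8.41%). These matches describe letters in a window and no binding.

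LSD1 peaks were dense around these genes at day 0, and fewer were listed at day 3. The windows held 38 LSD1 peaks in control cells at day 0 (exact 95% Poisson interval 26.9 to 52.2), 26 in knockdown cells at day 0 (16.98 to 38.1), 14 in control cells at day 3 (7.65 to 23.5), 10 LSD1+8a peaks (4.80 to 18.4) and 3 SVIL peaks (0.619 to 8.77). These intervals, and the binomial ones below, cover counting error only. LSD1 peaks were found in 8 of 8 windows in control cells at day 0, where 34.4% of all 100 kb bins of the genome held a peak. They were found in 8 of 8 windows at day 3 (39.2% of bins) and in 7 of 8 in knockdown cells (24% of bins), all but ARC. LSD1+8a peaks were found in 4 windows (9.77% of bins, or 9.83% with the bins shifted by 50 kb), those of FOS, FOSB, JUNB and NPAS4. SVIL peaks were found in 3 (4.21% of bins), those of JUN, JUNB and NR4A1. The windows are 100 to 150 kb long, so most are somewhat longer than a bin. The bins also include stretches without genes, and gene content was not matched.

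**Figure D1:**
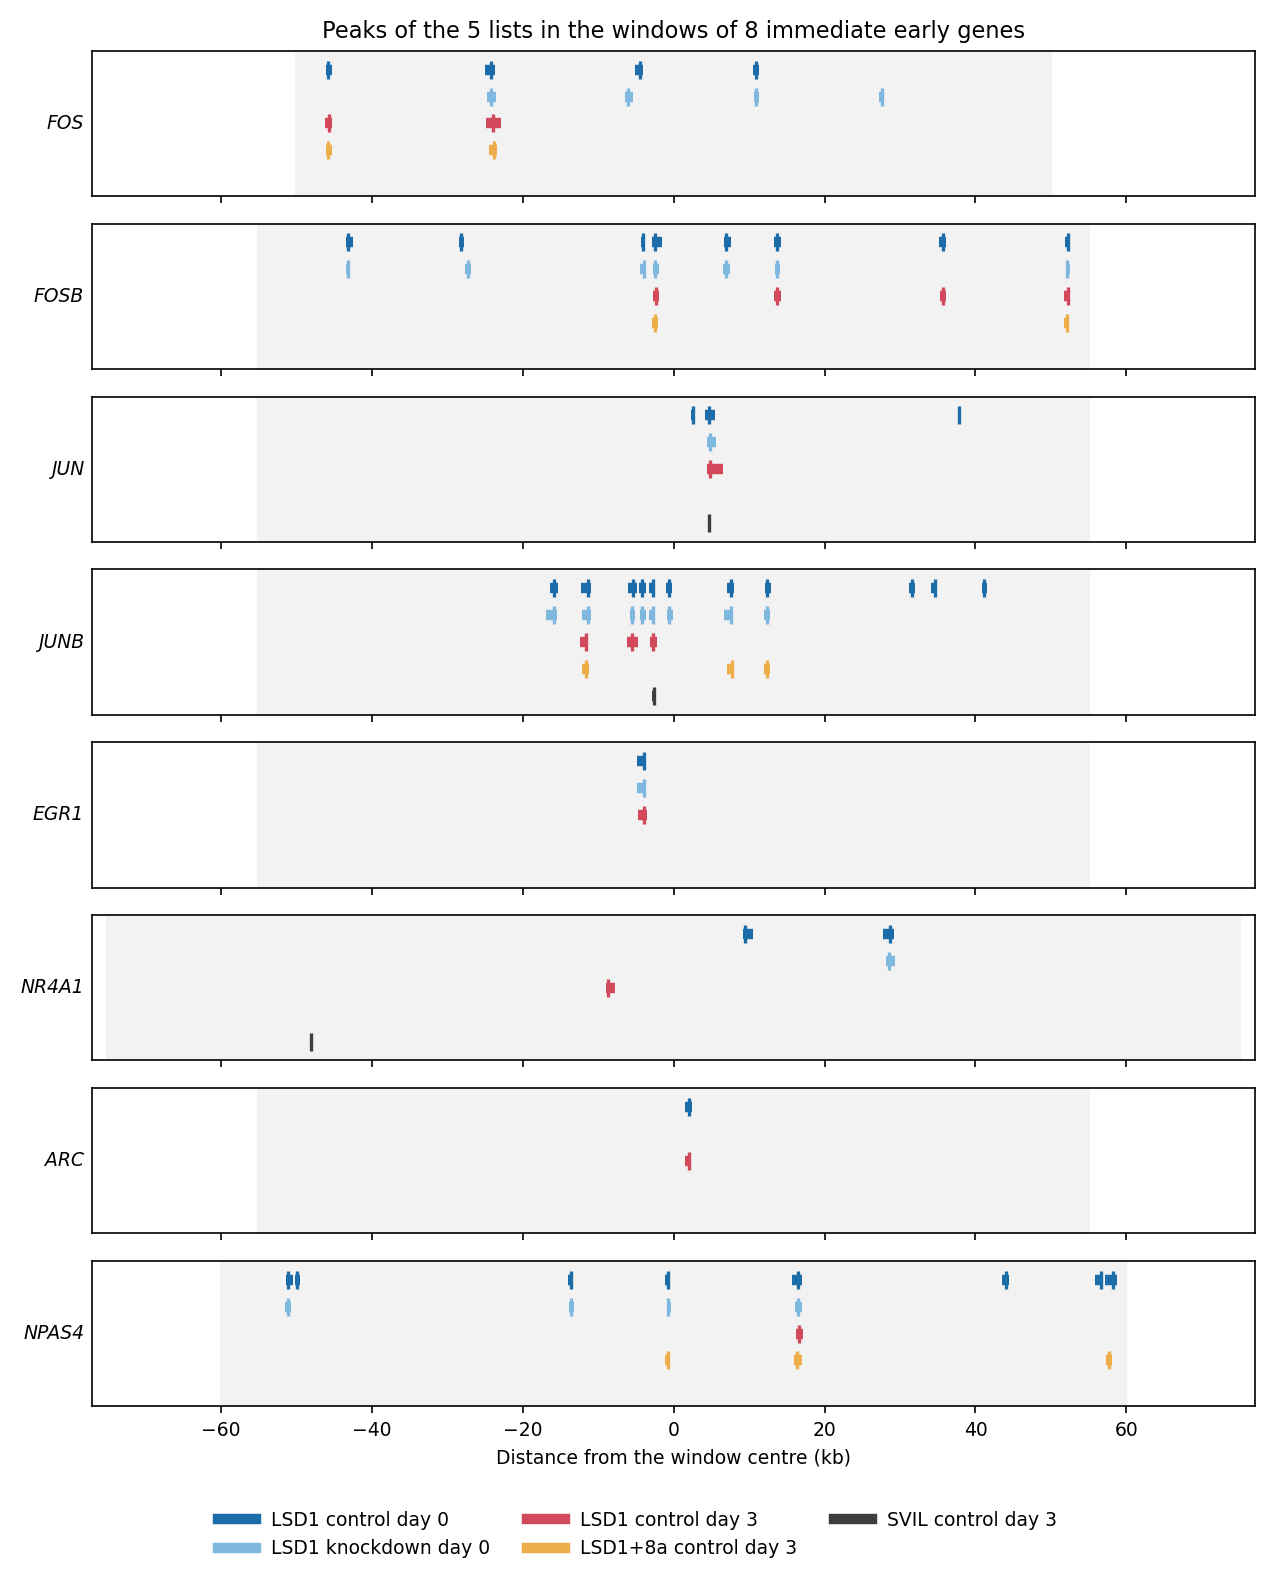
Map of the 8 windows, with distance from the window centre in kb on the horizontal axis and 1 lane for each list. Grey marks the window, thick lines the peaks and ticks their summits. EGR1 and ARC have 1 position each, while JUNB has 11 LSD1 peaks at day 0 in control cells, 8 of them also in knockdown cells.

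As a density, control cells at day 0 had 41.3 LSD1 peaks per Mb of window, against 7.96 on the chromosomes of the windows, weighted by window length, and 5.55 over the genome. Knockdown cells had 28.3 against 5.54 and 3.37. At day 3 the values were 15.2 against 7.45 and 6.82. LSD1+8a had 10.9 against 1.58 and 1.11, and SVIL 3.26 against 0.477 and 0.477. By window, LSD1 of control cells at day 0 had 100 per Mb for JUNB and 72.7 for FOSB, against 14.8 on chromosome 19. NPAS4 had 66.7 (against 6.81 on its chromosome), FOS 40 (4.35), JUN 27.3 (6.97) and NR4A1 13.3 (5.87). EGR1 and ARC, with 1 peak each, had 9.09, against 5.15 and 5.37. In each of the 5 lists the pooled density of the 8 windows lay above that of the chromosomes and of the genome. For each list the Poisson interval also lay above both. That interval treats peaks as independent, although peaks lay close together in some windows, and it does not cover the spread between windows. Whole chromosomes, like the bins, include stretches without genes. FOSB and JUNB lie on chromosome 19, which is rich in genes and in LSD1 peaks of day 0, and gave 19 of the 38 peaks of control cells at day 0, 15 of 26 in knockdown cells, 7 of 14 at day 3, 5 of 10 for LSD1+8a and 1 of 3 for SVIL. Of all 100 kb bins of chromosome 19, 60.9% held an LSD1 peak of control cells at day 0, 54.3% one of knockdown cells, 46.5% one of day 3, 23.7% an LSD1+8a peak and 3.89% a SVIL peak. The FOSB and JUNB windows both had a peak in each of the first 4 lists, and 1 of the 2 had a SVIL peak. Without these 2 windows, a setting added after seeing the data, the 6 others (0.7 Mb) held 27.1 LSD1 peaks per Mb in control cells at day 0 (Poisson interval 16.3 to 42.4, from 19 peaks), against 5.80 on their chromosomes and 5.55 over the genome. NPAS4 gave 8 of these 19 peaks. Knockdown cells had 15.7 (7.84 to 28.1, against 3.46 and 3.37) and LSD1+8a had 7.14 (2.32 to 16.7, against 1.13 and 1.11). For these 2 lists and for LSD1 of control cells at day 0, the Poisson interval stayed above both. The separation was lost for LSD1 of day 3, with 10 per Mb from 7 peaks (4.02 to 20.6, against 7.22 and 6.82), and for SVIL, with 2.86 from 2 peaks (0.346 to 10.3, against 0.505 and 0.477).

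**Figure D2:**
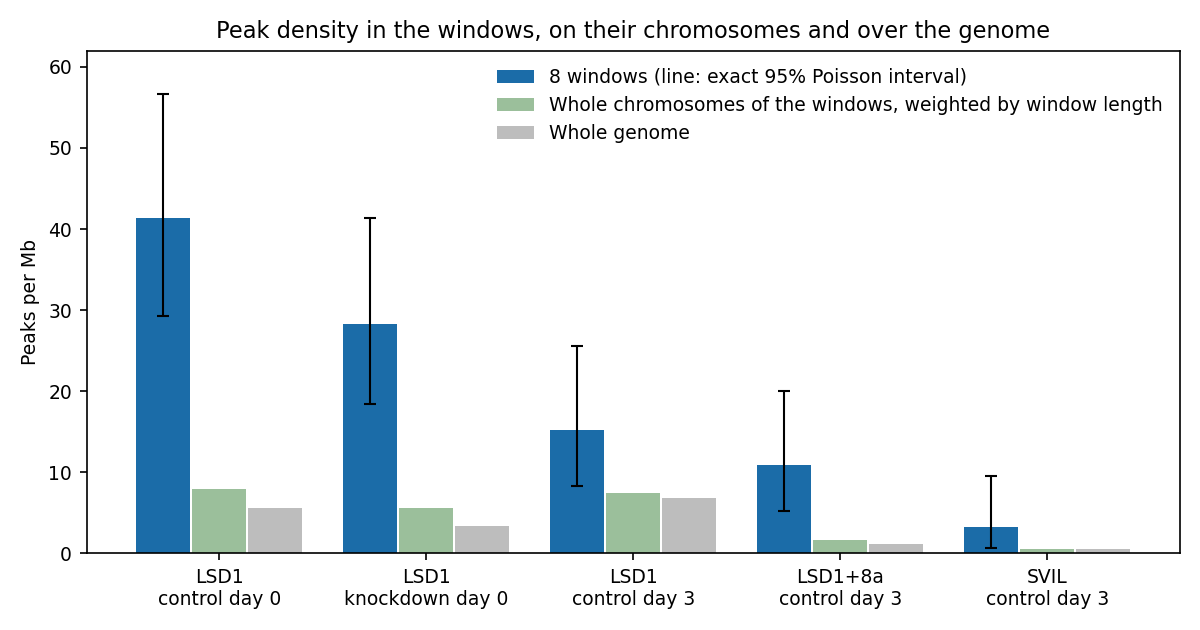
Peaks per Mb in the 8 windows (blue, with the exact 95% Poisson interval as a line), on their chromosomes (green) and over the genome (grey), for each list. The windows stand above both other bars in each list, with 41.3 LSD1 peaks per Mb in control cells of day 0 and 15.2 at day 3.

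Ranks below are by the authors' score within a list, with 1 as the highest score, and tags are the authors' unnormalised counts of sequenced tags in a peak. Ranks from lists of different length do not show a change between libraries.

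Among the AP-1 genes, JUNB, whose protein pairs with FOS proteins, had the most peaks of the 8 windows. It had 11 LSD1 peaks in control cells at day 0, 8 in knockdown cells, 3 in control cells at day 3, 3 LSD1+8a peaks and 1 SVIL peak. The day 0 control peaks made 100 per Mb, against 14.8 on chromosome 19. That is the highest density of the 8 windows. Merged over the lists they formed 11 regions, of which the first 6 lay between 12888105 and 12904890, with gaps of 184 to 4786 bp. All 8 knockdown peaks overlapped control peaks of the same day, and the 3 regions of control cells alone (from 12936204, 12939169 and 12945920) were the 3 at the far end of the window, with 15 to 19 tags.

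The JUNB window held 2 of the best ranked LSD1+8a peaks among the members. The first (12916925 to 12917791, 115 tags, fold enrichment 58.7) ranked 29 of 3378. It overlapped LSD1 peaks of control cells (34 tags, rank 4078 of 16882) and knockdown cells (32 tags, rank 5036 of 10248) at day 0, and no LSD1 peak of day 3. The second (12892902 to 12893805, 86 tags, fold enrichment 53.3) ranked 56 and lay at LSD1 peaks of all 3 lists. LSD1 ranked 771 there in control cells at day 0 (61 tags), 822 in knockdown cells (63 tags) and 14805 of 20748 at day 3 (42 tags). The third LSD1+8a peak of the window (12912107 to 12913069, 40 tags) ranked 658 and overlapped LSD1 at day 0 in control and knockdown cells only. Thus 2 of the 3 LSD1+8a peaks near JUNB, both of day 3, lay where LSD1 was listed at day 0 and not at day 3. Of the whole LSD1+8a list, 59.6% overlapped LSD1 of day 3 and 60.9% LSD1 of control cells at day 0. The share at day 0 and not at day 3 was not determined for the whole list.

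The SVIL peak (12902198 to 12902450, 18 tags, rank 392 of 1452) had its summit at -2.65 kb from the window centre, within LSD1 peaks of all 3 lists with 38 tags in control cells at day 0, 29 in knockdown cells and 38 at day 3. The LSD1 peak of highest rank in knockdown cells near JUNB (12900586 to 12901303, 49 tags, fold enrichment 21.7) ranked 654 of 10248 and was also listed in control cells of day 0, with 41 tags and rank 1563. Beside it, the region from 12898893 to 12900281 was in all 3 LSD1 lists with low ranks: 8171 in control cells at day 0 (32 tags), 7114 in knockdown cells (24 tags) and 19045 at day 3 (55 tags). The best ranked day 3 LSD1 peak of the window was the one at the second LSD1+8a peak. The JUNB window was the only one of the 8 with peaks in all 5 lists, but no region of it was in all 5: LSD1+8a and SVIL peaks there did not overlap.

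FOSB had 8 LSD1 peaks in control cells at day 0, 7 in knockdown cells, 4 in control cells at day 3, 2 LSD1+8a peaks and no SVIL peak. Its best ranked LSD1+8a peak (45972207 to 45972876, 87 tags, fold enrichment 68.1) ranked 31 of 3378, with its summit at -2.44 kb from the window centre. LSD1 was listed at this place in each of its 3 lists, at rank 6183 of 16882 in control cells at day 0 (40 tags), 9281 of 10248 in knockdown cells (34 tags) and 19617 of 20748 at day 3 (32 tags). The LSD1 summit at day 0 lay 9 bp from that of LSD1+8a. The second LSD1+8a peak (46026769 to 46027437, 25 tags, fold enrichment 20.1, rank 1236) also lay at peaks of all 3 LSD1 lists. LSD1 had 31 tags there in control cells at day 0 (rank 1936), 23 in knockdown cells (rank 3743) and 59 at day 3 (rank 1783), and for both control lists this was the best ranked LSD1 peak of the window.

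Each of the 4 LSD1 peaks near FOSB at day 3 had been listed at day 0. Beside the 2 just named they were a region in all 3 LSD1 lists (45988277 to 45989224; 46 tags in control cells at day 0, 42 in knockdown cells, where it ranked 559 and best of the window, and 56 at day 3) and one in both control lists (46010224 to 46011128; 24 tags at day 0 and 76 at day 3). The latter ranked 14682 of 16882 at day 0 and 1888 of 20748 at day 3, where it was in the highest 10% of scores.

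FOS had 4 LSD1 peaks in control cells at day 0, 4 in knockdown cells, 2 in control cells at day 3, 2 LSD1+8a peaks and no SVIL peak. One region (75725080 to 75727206) was in 4 lists. LSD1 ranked 142 of 16882 there in control cells at day 0 (86 tags, fold enrichment 26.4), 514 of 10248 in knockdown cells (87 tags, 13.7) and 9413 of 20748 at day 3 (71 tags, 12.2). LSD1+8a ranked 1609 of 3378 (40 tags). A second region, at -45.7 kb from the centre (75703830 to 75704776), belonged to both control lists of LSD1, with 23 tags at day 0 (rank 9883) and 56 at day 3 (rank 4505), and to LSD1+8a with 35 tags (rank 1062). It was absent from the knockdown list. Nearer the centre, control cells had a peak at 75744922 to 75745985 (43 tags) and knockdown cells one at 75743626 to 75744584 (31 tags). These did not overlap, but their edges were 337 bp apart.

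JUN, which encodes the founding partner of FOS in AP-1, had 3 LSD1 peaks in control cells at day 0 and 1 in each of the other LSD1 lists, 1 SVIL peak and no LSD1+8a peak. The LSD1 peaks of the 3 lists and the SVIL peak formed 1 region (59249128 to 59251557). LSD1 had 49 tags in control cells at day 0 (rank 2479), 49 in knockdown cells (rank 2205) and 94 at day 3 (rank 4251). The SVIL peak in it (59249532 to 59249792) had 21 tags, a fold enrichment of 25.1 and rank 372 of 1452. The summits of the 4 peaks lay within 168 bp. The other 2 day 0 peaks of control cells had 13 and 10 tags and ranks of 14574 and 15450 of 16882.

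EGR1 was unlike the AP-1 genes in that its window held 1 region only, and that region ranked high for LSD1. The LSD1 peak of control cells at day 0 (137800170 to 137801410) had 127 tags, a fold enrichment of 34.4 and rank 39 of 16882. In knockdown cells (137800215 to 137801412) it had 152 tags, a fold of 33.7 and rank 12 of 10248. At day 3 (137800255 to 137801429) it had 139 tags, a fold of 23.5 and rank 1016 of 20748. The 3 summits lay within 24 bp of each other, from -3.93 to -3.91 kb of the window centre. No LSD1+8a or SVIL peak was listed in the 110 kb window. These were the best ranked LSD1 peaks of the 8 windows in each of the 3 LSD1 lists.

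The 2 other transcription factor genes differed in number of peaks. NPAS4, whose product switches on genes of inhibitory synapses in active neurons, had 8 LSD1 peaks in control cells at day 0, 4 in knockdown cells, 1 at day 3, 3 LSD1+8a peaks and no SVIL peak. Each of its 3 LSD1+8a peaks overlapped a day 0 LSD1 peak of control cells, and 1 overlapped a day 3 LSD1 peak. That region (66205721 to 66207110) had 68 LSD1 tags in control cells at day 0, 66 in knockdown cells and 71 at day 3, and 49 LSD1+8a tags (rank 618 of 3378). LSD1 ranked 1164, 527 and 2682 there in the same order. The LSD1+8a peak nearest the window centre (66188872 to 66189590, 28 tags, rank 2274) lay at LSD1 peaks of both day 0 lists, with 22 tags in control and 20 in knockdown cells, and the 3 summits were within 29 bp. The third (66247272 to 66248130, 44 tags, rank 772) lay at an LSD1 peak of control cells at day 0 with 54 tags, whose summit was 598 bp away. Near NPAS4, 2 of the 3 LSD1+8a peaks lay at LSD1 of day 0 and not of day 3. Over the whole LSD1+8a list, 59.6% overlapped LSD1 of day 3, which is a different measure. The matching share, at LSD1 of day 0 and not of day 3, was not determined for the whole list. The best ranked LSD1 peak of the window at day 0 (66138659 to 66139538, 42 tags, rank 551) was shared with knockdown cells (41 tags, rank 1381) and had no day 3 peak.

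NR4A1, a nuclear receptor without a known hormone, had 4 regions in a window of 150 kb and none in more than 2 lists. It was the only window with a day 3 LSD1 peak that had not been listed at day 0 (52425999 to 52427258, 53 tags, rank 12053 of 20748). Control cells at day 0 had peaks at 52444264 to 52445549 (32 tags, rank 8303) and at 52462746 to 52464220 (66 tags, rank 1713). The latter was found in knockdown cells with 38 tags and rank 9691 of 10248. The SVIL peak (52386814 to 52387080, 16 tags, rank 966 of 1452) overlapped no peak of any other list and had its summit at -48.0 kb from the centre.

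ARC, whose protein acts at the synapse and is a product rather than a regulator of transcription, had 1 region. The region came from the LSD1 control lists of day 0 (143696553 to 143697407, 23 tags, rank 5951 of 16882) and day 3 (143696582 to 143697256, 30 tags, rank 15481 of 20748), with summits 66 bp apart. ARC was the one window of the 8 without an LSD1 peak in knockdown cells, and it had no LSD1+8a or SVIL peak.

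Across the 91 peaks, ranks ranged from the top of a list to its end. In the highest 10% of scores of a list lay 6 of 38 LSD1 peaks in control cells at day 0 (15.8%, exact 95% binomial interval 6.02 to 31.3, against 10% of the list), 6 of 26 in knockdown cells (23.1%, 8.97 to 43.6, against 9.99%) and 3 of 14 at day 3 (21.4%, 4.66 to 50.8, against 10%). For LSD1+8a it was 3 of 10 (30%, 6.67 to 65.2, against 9.98%) and for SVIL 0 of 3 (up to 70.8%, against 9.99%). Each interval covers the share of the whole list, so no excess of high scores was resolved with these numbers. The median number of tags was 31.5 in control cells at day 0 (26 over the list), 34 in knockdown cells (28), 56 at day 3 (50), 42 for LSD1+8a (38) and 18 for SVIL (20).

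**Figure D3:**
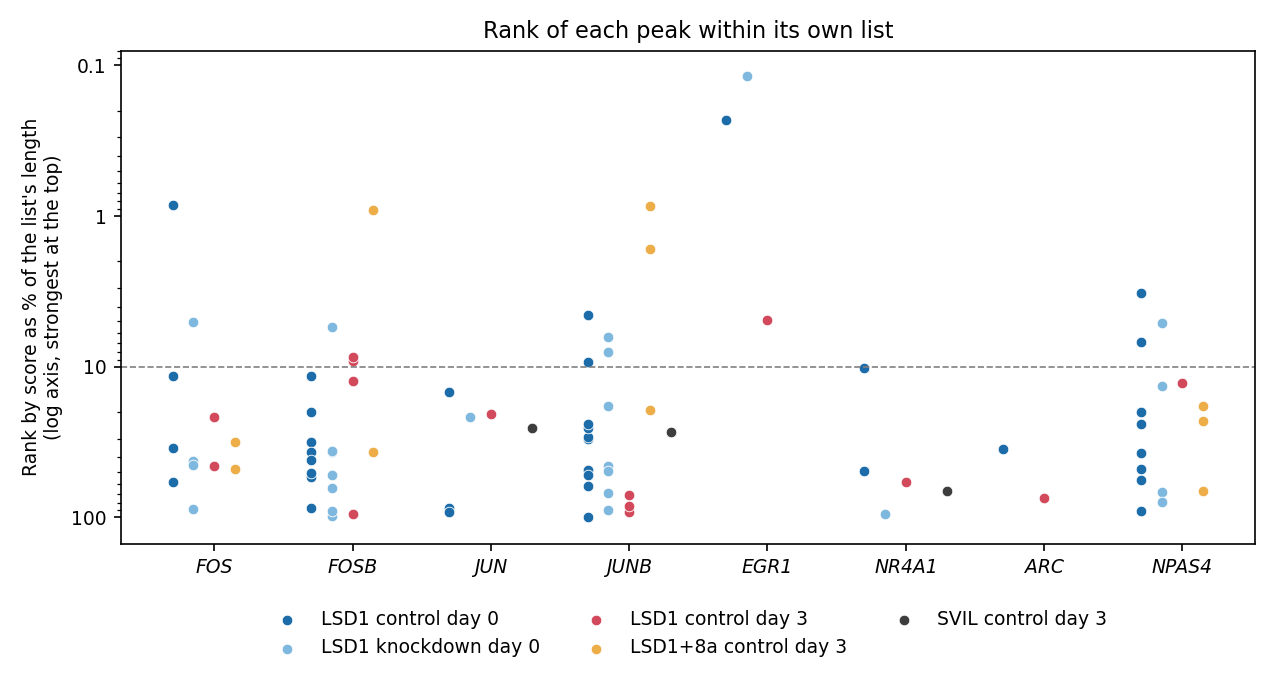
Rank of each of the 91 peaks by score, as a percentage of the length of its own list, on a log axis with the highest scores at the top, by gene and list. The dashed line marks the highest 10%. EGR1 stands at 0.231% and 0.117% in the day 0 lists of control and knockdown cells, and the LSD1+8a peaks of FOSB (0.918%) and JUNB (0.858% and 1.66%) are the LSD1+8a points above the line.

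The comparison of days asks how LSD1 peaks differed between day 0 and day 3 of maturation with BDNF. In the windows, nearly every day 3 peak lay where a day 0 peak had been, while most day 0 peaks had no day 3 counterpart. A day 0 overlap was found for 13 of the 14 day 3 peaks (92.9%, 66.1 to 99.8), against 40.1% of the whole day 3 list. Conversely, 13 of the 38 day 0 peaks had a day 3 overlap (34.2%, 19.6 to 51.4), against 50.1% of the whole day 0 list. The first share lay above that of the list by more than its interval, and the interval of the second included the share of the list. On chromosome 19 as a whole the shares were 64.5% and 35.6%. Summits of the 13 overlapping pairs lay a median of 67 bp apart. Day 0 peaks outnumbered day 3 peaks in 6 of 8 windows and equalled them in 2 (EGR1 and ARC). Over the genome, day 0 had more peaks in 29.9% of the 100 kb bins with a peak on either day, equal numbers in 23.5% and fewer in 46.6%.

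The 11 regions found solely in the day 0 control list had 10 to 43 tags, and their ranks lay between 34.6% and 99.2% of the list's length, with 0 in its highest 10%. How many peaks of the whole day 0 list lie in no other list, and how those rank, was not determined. With the top 1452 peaks of each list, the windows held 5 LSD1 peaks in control cells at day 0, 7 in knockdown cells and 1 at day 3, that of EGR1. At this length LSD1+8a had 8 peaks and SVIL 3, so the order of the lists by count was not that of the full lists. The labels name no batch for these libraries. Which input each list was called against was not established.

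The comparison with LSD1+8a knockdown asks whether LSD1 was found at the same places at day 0. Of the 26 knockdown peaks in the windows, 23 (88.5%, 69.8 to 97.6) overlapped a control peak of the same day, against 69.4% of the knockdown list and 76.6% of its chromosome 19 peaks. In turn, 23 of the 38 control peaks were shared with knockdown cells (60.5%, 43.4 to 76.0), against 42.1% of the control list and 62.1% of its chromosome 19 peaks. Summits of overlapping pairs lay a median of 29 bp apart. Every knockdown peak near JUN, JUNB, EGR1, NR4A1 and NPAS4 was also a control peak. The 3 that were not lay near FOS (2) and FOSB (1), and the FOSB one was 143 bp from the nearest control peak. The 15 control peaks without a knockdown overlap were spread over 7 windows, all but EGR1: 4 near NPAS4, 3 near JUNB, 2 each near FOS, FOSB and JUN, and 1 each near NR4A1 and ARC. In the central 50% of each window, 20 of 24 control peaks (83.3%) were shared. Control cells had more peaks than knockdown cells in 6 of 8 windows and as many in 2 (FOS and EGR1), where 55.3% of all 100 kb bins with a peak in either list had more and 29.1% as many.

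LSD1+8a and SVIL were compared with LSD1 to ask where the isoform and its named cofactor lay. All 10 LSD1+8a peaks of day 3 in the windows overlapped an LSD1 peak of control cells at day 0 (69.2 to 100%), against 60.9% of the LSD1+8a list. The overlap with the day 0 knockdown list was 8 of 10 (80%, 44.4 to 97.5), against 52.4% of the list. Both pairs were chosen after their values were seen. With LSD1 of the same day, 6 of 10 overlapped (60%, 26.2 to 87.8), against 59.6% of the list, and the 4 that did not lay near JUNB (2) and NPAS4 (2). Read from the other side, 6 of the 14 day 3 LSD1 peaks overlapped an LSD1+8a peak (42.9%, 17.7 to 71.1), against 9.69% of the whole day 3 list and 20.9% of its chromosome 19 peaks, which lies within the interval. This pair, too, was chosen after its values were seen. The 6 lay in the windows of FOS, FOSB, JUNB and NPAS4. At least 1 LSD1 list was met by 10 of 10 (84.5% of the list) and all 3 by 5 of 10 (28.6% of the list). Recognition of the +8a form by the general LSD1 antibody was not tested.

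Of the 3 SVIL peaks, those near JUN and JUNB overlapped LSD1 of day 3 (66.7%, 9.43 to 99.2, against 58.7% of the list), and each of these 2 also overlapped LSD1 in both day 0 lists. Thus 2 of 3 met at least 1 LSD1 list (69.6% of the list) and the same 2 met all 3 (24% of the list). None of the 3 overlapped an LSD1+8a peak (0 to 70.8%, against 18.6% of the list). With 3 peaks, neither share can be told from that of the whole list. The SVIL list also had a higher lowest score than the others (71.72, against 50 to 50.01), so absence from it is not like absence from them.

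**Figure D4:**
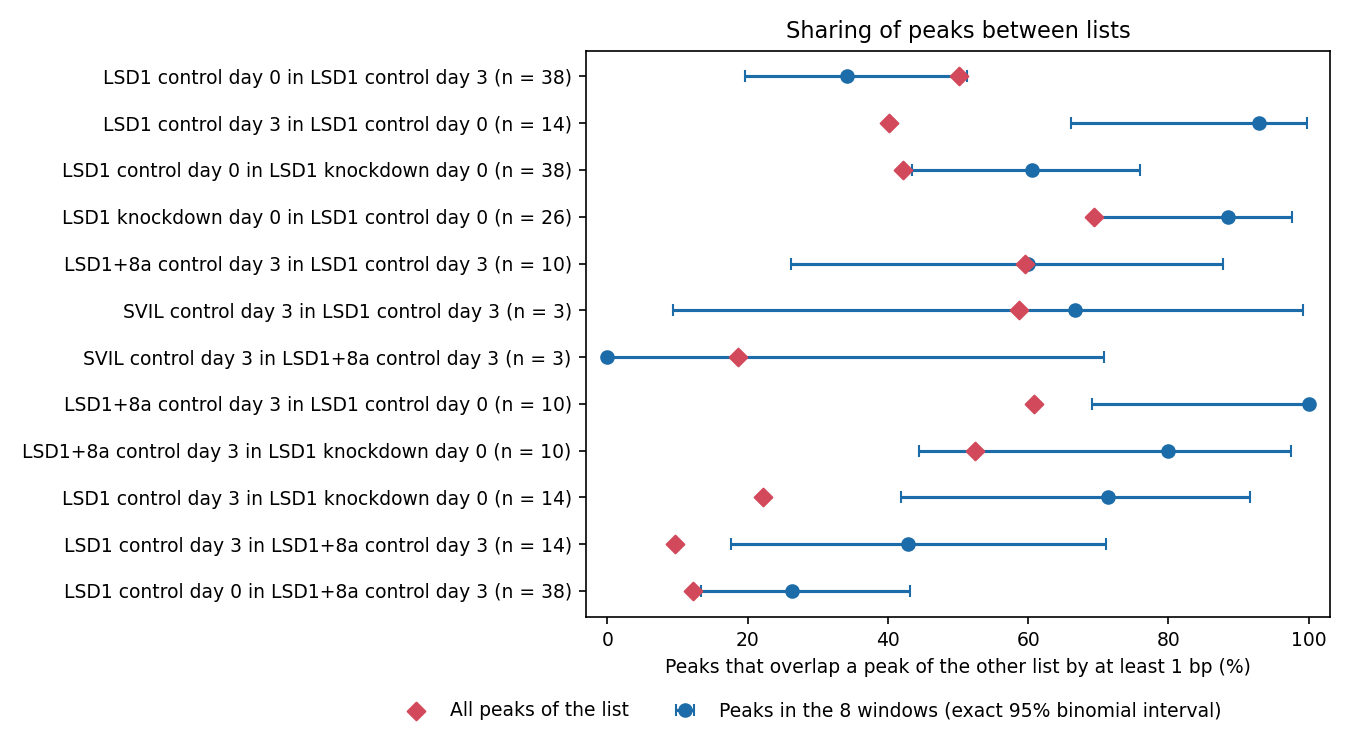
Share of the peaks in the 8 windows that overlapped a peak of a second list by at least 1 bp (blue, with the exact 95% binomial interval), beside the same share over the whole list (red diamonds). The first list named on each line supplies the peaks that are counted. Day 3 LSD1 peaks lie at 92.9% in day 0, against 40.1% for the whole list, and LSD1+8a peaks at 100% in LSD1 of control cells at day 0, against 60.9%.

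Merged over the 5 lists, the 91 peaks formed 43 regions. A single list held 16 of them, 2 lists 13, 3 lists 7, 4 lists 7, and no region was common to the 5. The most frequent kinds were the day 0 control list of LSD1 alone (11 regions), LSD1 in both day 0 lists (10) and the 3 LSD1 lists with LSD1+8a (5). The 14 regions in 3 or more lists were 5 near JUNB, 3 near FOSB, 2 each near FOS and NPAS4 and 1 each near JUN and EGR1. Peaks were not merged in this way over the whole genome, so none of these counts has a background share.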

How the data were processed

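ChIP-seq of SH-SY5Y cells gave the 5 peak lists, each named for 1 library. The submitters' processing notes list CASAVA, Bowtie 1.0.0, hg19 and mm9. Positions were read as hg19. Peak caller, threshold and depth are unknown here. Tags are deposited counts, not normalised, and fold enrichment is a deposited ratio. The lists are named as set against input, but which input library served each is not stated. The only input labelled for control cells at day 3 belongs to the samples of a histone mark. The deposited score had lost its name in the header and otherwise served only for ranks within a list. Its lowest value was 71.72 in the SVIL list and 50 to 50.01 in the others. The median peak length was 314 bp over the SVIL list and 769 to 1044 bp over the others. Whether the SVIL list was called or cut differently is unknown here.

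Peaks overlapping a window, or a second list, by at least 1 bp were counted, with exact Clopper-Pearson or Poisson 95% intervals. Background bins of 100 kb tiled 3041.5 Mb. The code was tested on simulated data. Members and lists were chosen with earlier results of these data known. Named peaks are the best ranked per list and window, every LSD1+8a and SVIL peak, regions in 3 or more lists and every peak in windows of at most 3 regions. Others named were chosen after their values were seen. Alternatives changed the overlap rule, score threshold, list length and window width. A change of bin position bears on the background shares alone. Promoters are from RefSeq (GRCh38.p14). Related genes were not placed in hg19. Python 3.11.15, pandas 2.3.3 and scipy 1.17.1 were used.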

Additional observations from a re-analysis of the deposited data

How the results depend on the processing

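Of 85 alternative values, 70 stayed within 1.5 times the count or within the interval of the share, and 15 did not. The values under shifted bins are among the 70 and could not move, because counts in the windows do not use the bins. In the central 50% of each window, LSD1 of control cells at day 0 had 24 peaks, the control share found in knockdown cells was 83.3% and the SVIL share at LSD1 of day 3 was 100%, on 2 peaks. With the upper 50% of each list by score, knockdown cells had 16 peaks, day 3 had 8 LSD1 peaks, and those lay in 5 windows. With equal numbers of top-scoring peaks, LSD1 had 5 peaks in control cells at day 0, 7 in knockdown cells and 1 at day 3. LSD1+8a had 8 and SVIL, whose whole list entered, had 3. Without the 2 windows on chromosome 19, a setting added after seeing the data, LSD1 had 19 peaks in control cells at day 0, 11 in knockdown cells and 7 at day 3, and LSD1+8a had 5 in 2 windows, and the window density of LSD1 at day 3 and of SVIL no longer stood above that of the genome beyond its interval. Counts fall by construction where fewer peaks or less sequence entered. With a reciprocal overlap of 50%, the SVIL share at LSD1 of day 3 was 0%, and SVIL peaks were shorter (median 261 bp in the windows, against 941.5 bp for LSD1 of day 3). The day 3 share found at day 0 was 75.0 to 92.9% over its alternatives, and the LSD1+8a share at day 0 LSD1 was 88.9 to 100%. No paired analysis was possible because each group is 1 library. With 1 library per group and unknown depth, no difference between lists can be assigned to a condition.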

Other observations

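Of 23 further immediate early, serum response factor or CREB related genes listed for comparison, 17 had a RefSeq promoter. In the 250 bases before their starts, 12 of 17 held the TGACG core (BDNF, BTG2, CREM, EGR2, EGR4, ELK1, FOSL2, IER2, JUND, KLF4, NR4A3 and SRF), against 21.2% of all promoters. The 2 values are not alike. A gene was counted if any of its starts held the motif, while the background is a share of single promoters. The genes were also listed for their links to these factors, so their share is not independent of that choice. The CArG box was found in 2 of 17, EGR2 and SRF, the gene of serum response factor itself. The full element TGACGTCA was found in CREM and JUND, and the AP-1 element TGANTCA in 0 of 17. The EGR element GCGNGGGCG was found in 6 of 17 (BDNF, BTG2, CREB1, HOMER1, KLF4 and SRF). These are counts of letters in a window of the GRCh38.p14 build and say nothing of binding or of sequence outside the window.

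The edges of the windows were set by position. Within 10 kb inside the edges lay 13 peaks of the 5 lists, and within 10 kb outside them 7 more, of which 3 were LSD1 of control cells at day 0 and 4 LSD1 of knockdown cells. No day 3 peak of LSD1, LSD1+8a or SVIL lay within 10 kb outside.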
